A study of Mus musculus with 12 samples.

Results

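The genes described here are 10 general markers of macrophages and other myeloid cells, namely Csf1r, Fcgr1, Cd14, Tyrobp, Fcer1g, Cd68, Laptm5, Lyz2, Adgre1 and Aif1. They were taken by symbol from a table of 47263 genes, in which all 10 were found, and all 10 were among the 13871 genes that passed a filter on low values. Expression was measured by RNA sequencing of total RNA from whole livers of mice, in 12 libraries that fall into 4 groups of 3. The KO GFP and KO MET/CAT groups carried a Sirt2 deletion in hepatocytes, labelled Sirt2 liver KO, and the WT GFP and WT MET/CAT groups were wild type. Mice received plasmids by hydrodynamic tail-vein injection at 6 to 8 weeks of age, and livers were taken 8 weeks later. In the MET/CAT groups these were 22.5 µg of pT3-EF1a-c-MET, 22.5 µg of pT3-EF1a-DN90-β-catenin and 5.0 µg of the HSB2 sleeping beauty transposase plasmid in 2.0 mL saline, which gives liver tumours driven by both oncogenes. The GFP groups were given a GFP plasmid, whose amount the sources used here do not give. How the deletion in hepatocytes was made is likewise not stated there. The MET/CAT plasmids enter only the hepatocytes that take up DNA. Groups follow the sample titles, which the labels' treatment field contradicts for KO GFP and for WT MET/CAT samples, since it lists GFP with all WT and MET/CAT with all KO samples. Whether each replicate is a separate mouse is not stated, so the p-values speak of the spread among libraries, which may be technical.

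Myeloid cells are the monocytes, macrophages, dendritic cells and granulocytes of the blood and tissues. The liver holds a large resident macrophage population, the Kupffer cells, which line the sinusoids, take up particles and worn red cells and are joined by monocytes from the blood when the liver is injured or bears a tumour. These cells depend on the receptor tyrosine kinase Csf1r for survival and sense immune complexes through Fc receptors that signal via the adaptor Fcer1g. Other receptors, such as Trem2, signal via the adaptor Tyrobp. The cells also sense bacterial lipopolysaccharide with the help of Cd14, and digest what they take up in lysosomes rich in Cd68, Laptm5 and lysozyme. Hepatocytes make nearly none of these proteins, with the exception of Cd14, which hepatocytes are known to induce as part of the acute-phase response.

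Many myeloid genes are switched on by the transcription factor PU.1 (Spi1), whose sites share the core GGAA, so the promoters of markers that the results turn on are shown. A 300-base window, 250 bases before and 50 after the start site, was held for 6 of the 10 markers in the RefSeq promoter table (GRCm38.p6), namely Fcer1g, Fcgr1, Laptm5, Lyz2, Cd68 and Aif1. Laptm5 and Fcer1g were the markers called between KO MET/CAT and KO GFP livers, and Lyz2 was the most abundant marker per length. The windows are chr4:130913066-130913365 on the plus strand for Laptm5, chr1:171234300-171234599 on the minus strand for Fcer1g and chr10:117282223-117282522 on the minus strand for Lyz2. Each is written 5′ to 3′ on the strand of its gene, and capitals mark a match to GAGGAA or AGGAAGT on either strand.
Laptm5: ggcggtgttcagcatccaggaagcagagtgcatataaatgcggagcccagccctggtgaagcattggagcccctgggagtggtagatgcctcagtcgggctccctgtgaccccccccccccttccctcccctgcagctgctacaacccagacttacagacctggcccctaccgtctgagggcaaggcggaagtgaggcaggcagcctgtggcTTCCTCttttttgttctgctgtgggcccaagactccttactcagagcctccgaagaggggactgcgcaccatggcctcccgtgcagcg
Fcer1g: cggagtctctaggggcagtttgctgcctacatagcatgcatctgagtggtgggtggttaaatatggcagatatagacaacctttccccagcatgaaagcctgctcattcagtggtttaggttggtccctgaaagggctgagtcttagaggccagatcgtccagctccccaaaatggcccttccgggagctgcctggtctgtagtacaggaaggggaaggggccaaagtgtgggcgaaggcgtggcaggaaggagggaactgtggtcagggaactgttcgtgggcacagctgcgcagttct
Lyz2: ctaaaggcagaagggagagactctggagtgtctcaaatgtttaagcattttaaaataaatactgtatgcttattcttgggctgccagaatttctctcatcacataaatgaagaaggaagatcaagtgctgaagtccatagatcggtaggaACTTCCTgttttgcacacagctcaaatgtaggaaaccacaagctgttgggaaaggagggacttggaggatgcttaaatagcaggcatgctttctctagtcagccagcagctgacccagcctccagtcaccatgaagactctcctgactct
GAGGAA was found in 4 of the 6 windows (Aif1, Cd68, Fcgr1 and Laptm5) and in 28.3% of 32851 promoters of the same length. AGGAAGT was found in 2 of the 6 windows (Fcgr1 and Lyz2) and in 9.35% of all promoters, and the longer GAGGAAGT in 0 of the 6 and 3.2% of all. The Laptm5 match lies on the reverse strand from −38 to −33 relative to the start site of its RefSeq window, and the Lyz2 match on the reverse strand from −100 to −94. GENCODE M21 starts the Laptm5 gene further upstream, at 130913125, so by that annotation its match lies inside the gene. In Fcgr1 the matches to the 2 shorter motifs share a base at −55. The Fcer1g window holds neither motif, which says only that these letters are not there.

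The libraries held 18208879 to 24352961 reads counted in genes, and the 10 markers together received 1061 to 5750 reads per library. Values are normalized reads, that is, read counts divided by a factor for each library, and log2 differences were taken after adding 1. Sirt2, the targeted gene, had 125.7 to 232.6 normalized reads in KO GFP and 725.8 to 923.6 in WT GFP livers, and 200.6 to 248.1 in KO MET/CAT and 908.4 to 1068 in WT MET/CAT livers, so each library matched the genotype in its title. KO GFP replicate 3 lay at −85.05 on the leading principal component, which held 21.9% of the variance, against −33.4 to 55.02 for the other libraries. Its genes deviated with transcript length (Spearman rho = 0.485 across genes, against −0.385 to 0.208 in the other libraries; genes are not independent replicates). Hepatocyte markers, such as albumin, were abundant in every library. No replicate pair was alike within sampling noise.

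The level of each marker per median transcript length set their order. The order by the length of all exons together, which could differ, was not computed. That length is 1532 bases for Aif1, against a median transcript of 847, and 3788 for Laptm5, against 2600. In WT GFP livers, in RPKM (reads scaled for transcript length and library depth), Lyz2, the lysozyme of myeloid cells, averaged 31.3 ± 2.42 (SD, n = 3). Tyrobp (19.9 ± 6.10) and Fcer1g (17.7 ± 1.60) followed, and their ranges overlapped. Aif1 (12.1 ± 1.54) and Laptm5 (9.48 ± 0.68) came next, each without overlap with its neighbours. Csf1r (6.74 ± 0.98) and Cd68 (5.76 ± 0.59) overlapped each other and lay above Cd14 (2.37 ± 0.37), Adgre1 (2.31 ± 1.15) and Fcgr1 (1.54 ± 0.25). In the last 3, Cd14 overlapped Adgre1 and Adgre1 overlapped Fcgr1. The order of the levels kept Lyz2 at the top and Adgre1 and Fcgr1 at the bottom in all 4 groups. Cd14 moved most, to 4th place of 10 in KO MET/CAT livers (15.2 ± 13.4 per length) and to 2nd in WT MET/CAT livers (29.0 ± 23.9), against 8th in both KO GFP (2.37 ± 1.16) and WT GFP livers. In both MET/CAT groups the Cd14 range overlapped those of its neighbours in the order.

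**Figure D1:**
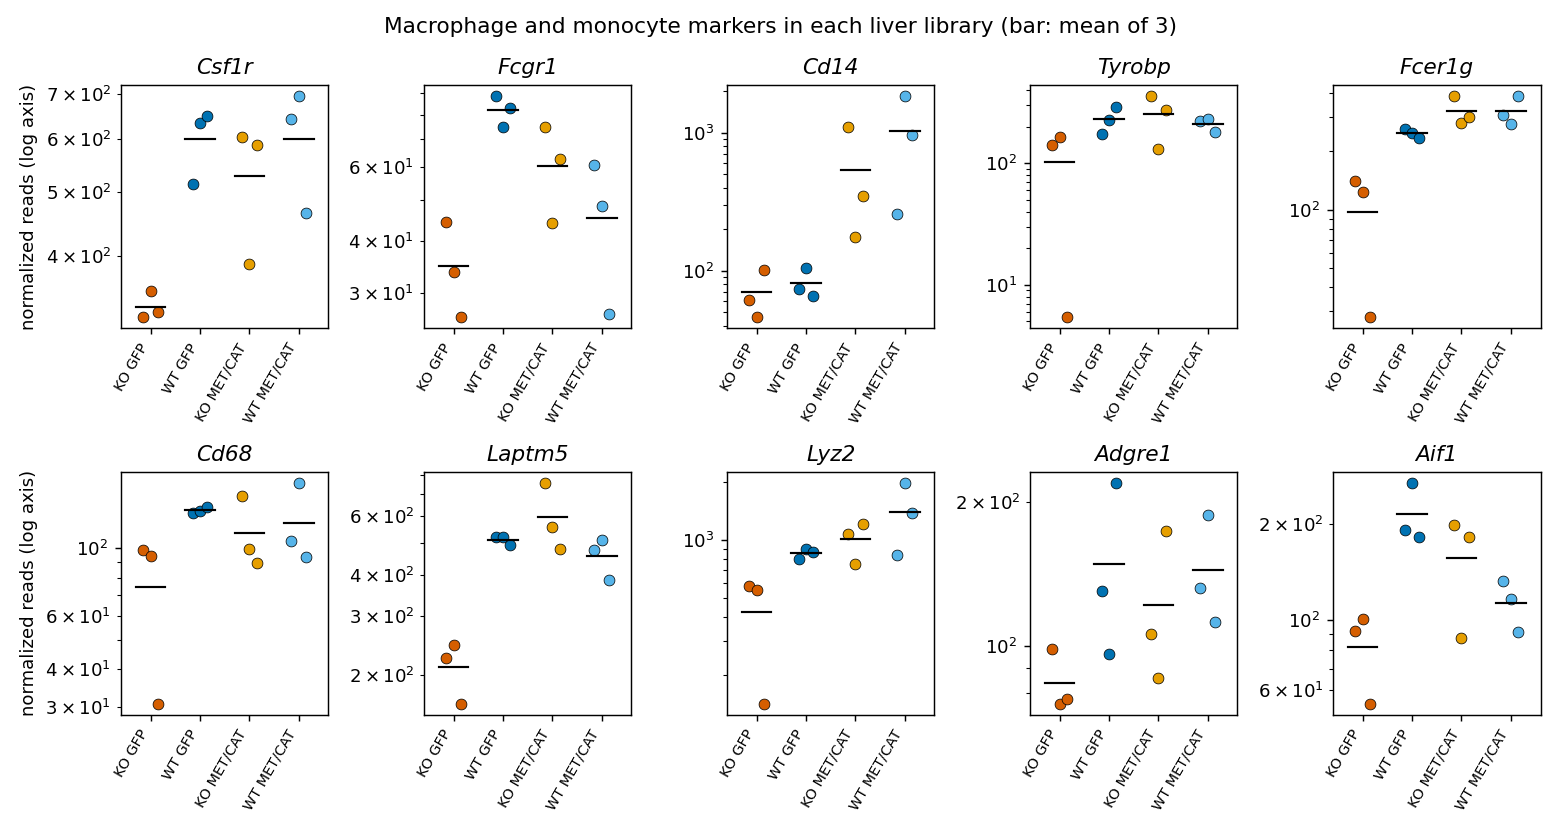
Normalized reads (log axes, with a scale of their own for each gene) of the 10 markers in each of the 12 libraries, by group; bars are means of 3. For 8 markers all KO GFP libraries lie below all WT GFP libraries, Tyrobp in KO GFP replicate 3 is at 5.42, and Cd14 is at least 174.7 in the MET/CAT libraries and at most 105.4 in the GFP libraries.

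The KO GFP and WT GFP livers show these markers without oncogenes, with and without hepatocyte Sirt2. All 10 markers had a lower level in KO GFP than in WT GFP livers, with a median log2 difference of −1.26, against −0.07 over all 13871 genes, of which 55.1% had a value below 0. Their summed level was 959.1 to 1802 normalized reads in KO GFP livers, against 2879 to 3222 in WT GFP livers, a ratio of 0.488. For 8 of the 10, every KO GFP library lay below every WT GFP library, which held for 13% of all genes. With limma, 0 of the 10 markers passed an adjusted p of 0.05, beside 0.00721% of all genes, a share that stands for Sirt2 alone. An unadjusted limma p under 0.05 was found for 8 of the 10 and for 2155 of the 13871 genes, edgeR called 0 markers and DESeq2 called 2 (Laptm5 and Aif1), beside 1.03% of the genes it tested. In whole tissue, fewer cells of a type and less RNA per cell cannot be told apart.

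Csf1r and Fcgr1 are surface receptors of the lineage. Csf1r (chromosome 18, 61100598 to 61132149, plus strand, GRCm38), the receptor of the growth factors CSF1 and IL-34, had 324.5, 355.4 and 330.0 normalized reads in KO GFP livers, against 513.6, 633.5 and 648.8 in WT GFP livers. The KO GFP libraries were close together and all below the WT GFP libraries. The log2 difference was −0.82 (SE 0.22, 95% interval −1.30 to −0.35, limma adjusted p = 0.272). Csf1r shares 873 exon bases with Hmgxb3 on the other strand, and the sources used here do not say whether reads were counted by strand. Fcgr1 (chromosome 3, 96282909 to 96293969, minus strand), the high-affinity receptor for IgG, had 44.4, 33.6 and 26.2 in KO GFP livers, against 88.8, 74.8 and 83.2 in WT GFP livers. Here too the groups did not overlap, with a log2 difference of −1.25 (SE 0.37, adjusted p = 0.272).

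Fcer1g encodes the small adaptor that carries the signal of Fc receptors, and Tyrobp encodes that of receptors such as Trem2. Fcer1g (chromosome 1, 171229572 to 171234365, minus strand) had 140.8, 123.0 and 28.0 normalized reads in KO GFP livers, against 261.3, 249.3 and 234.7 in WT GFP livers. All KO GFP libraries were lower, and replicate 3 was far below the other two. The log2 difference was −1.64 (SE 0.45, adjusted p = 0.272) and −0.91 without that library. Tyrobp (chromosome 7, 30413760 to 30417585, plus strand) had 140.8, 163.3 and 5.42 in KO GFP livers, against 174.5, 225.5 and 291.9 in WT GFP livers. KO GFP replicate 3 held nearly no Tyrobp, while the other KO GFP libraries lay just below the lowest WT GFP library. Its log2 difference of −2.09 (SE 0.89, 95% interval −4.00 to −0.19, adjusted p = 0.297) was −0.57 without that library.

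The genes of uptake and digestion were lower too. Laptm5 (chromosome 4, 130913125 to 130936141, plus strand), a lysosomal membrane protein of blood cells, had 224.4, 245.9 and 163.6 normalized reads in KO GFP livers, against 518.6, 520.1 and 492.8 in WT GFP livers. It was the marker with the smallest p here and showed no overlap, at a log2 difference of −1.29 (SE 0.22, 95% interval −1.77 to −0.81, adjusted p = 0.107). Cd68 (chromosome 11, 69664213 to 69666153, minus strand), a heavily glycosylated protein of macrophage lysosomes, had 98.6, 94.1 and 30.7 in KO GFP livers, against 130.6, 132.6 and 136.9 in WT GFP livers. All KO GFP libraries were lower, replicate 3 most of all, with a log2 difference of −1.004 (SE 0.41, adjusted p = 0.294) and −0.46 without it. Lyz2 (chromosome 10, 117277331 to 117282321, minus strand) had 576.7, 547.5 and 141.0 in KO GFP livers, against 794.8, 902.0 and 866.2 in WT GFP livers. The groups were apart, and the log2 difference of −1.26 (SE 0.45, adjusted p = 0.287) was −0.60 without replicate 3. Lyz2 has a closely similar neighbour, Lyz1, with which it could share reads, and Lyz1 was listed with 0 to 5 reads per library.

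Aif1, Adgre1 and Cd14 complete the set. Aif1 (chromosome 17, 35170991 to 35176068, minus strand), an actin-binding protein also called Iba1, had 91.9, 100.9 and 54.2 normalized reads in KO GFP livers, against 192.5, 270.8 and 182.8 in WT GFP livers. Every KO GFP library was below the lowest WT GFP library, at a log2 difference of −1.40 (SE 0.35, adjusted p = 0.260). Adgre1 (chromosome 17, 57358691 to 57483527, plus strand), which encodes the F4/80 antigen of mouse macrophages, had 98.6, 75.9 and 77.7 in KO GFP livers, against 130.6, 96.3 and 219.1 in WT GFP livers. KO GFP replicate 1 lay just above WT GFP replicate 2, so the groups overlapped (−0.74, SE 0.35, adjusted p = 0.328). Cd14 (chromosome 18, 36725067 to 36726798, minus strand), the co-receptor of Toll-like receptor 4, had 61.0, 46.1 and 102.2 in KO GFP livers, against 73.8, 105.4 and 65.8 in WT GFP livers. The groups overlapped through KO GFP replicate 3, in which 7 of the other 9 markers were at their lowest in the group, and the log2 difference was −0.27 (SE 0.67, 95% interval −1.72 to 1.17, adjusted p = 0.860).

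**Figure D2:**
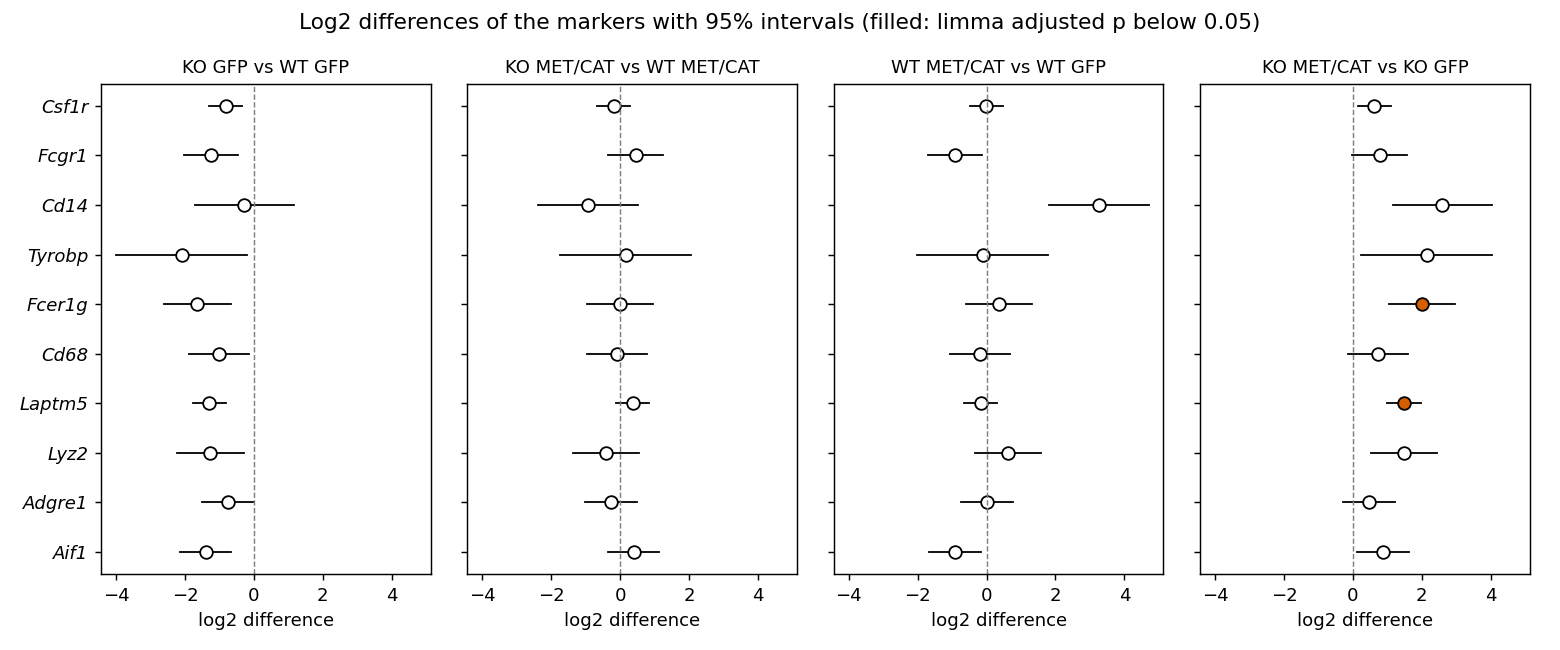
Log2 differences of the 10 markers (points) with 95% limma intervals (lines) in 4 comparisons; filled points have an adjusted p under 0.05. The 10 points lie below 0 for KO GFP vs WT GFP and above 0 for KO MET/CAT vs KO GFP, where Laptm5 (1.49) and Fcer1g (2.00) are filled.

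KO GFP replicate 3 carried much of the size of these differences, and its markers followed the length of their transcripts. Tyrobp, with the shortest transcripts (median 564 bases), stood in replicate 3 at 3.57% of the mean of the other KO GFP libraries. Fcer1g (678 bases) stood at 21.3%, Aif1 (847 bases) at 56.3%, Cd68 (1119 bases) at 31.9% and Lyz2 (1316 bases) at 25.1%. The long transcripts of Fcgr1 (2589 bases), Laptm5 (2600 bases), Adgre1 (3181 bases) and Csf1r (4285 bases) stood at 67.2%, 69.6%, 89.1% and 97.1%. Cd14 (1641 bases) was the exception at 191%. Spearman's rho between length and this ratio was 0.83 over the 10 markers and 0.497 over 13811 genes, all read from the same libraries and given as a description. Without replicate 3, all 10 markers were still lower in KO GFP livers, the median was −0.75, and 9 of 10 did not overlap with WT GFP livers (16.99% of all genes). With each library's trend on transcript length removed, the median was −0.92. The part of the length trend in the marker result was otherwise not tested.

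**Figure D3:**
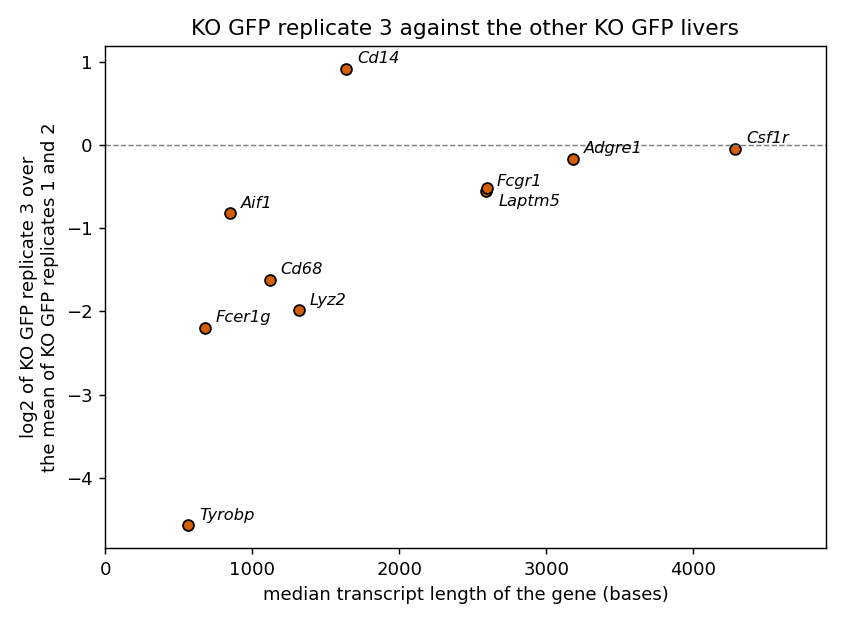
Log2 ratio of KO GFP replicate 3 over the mean of KO GFP replicates 1 and 2 (vertical axis) against the median transcript length of the gene in bases (horizontal axis), 1 point per marker. The 4 markers over 2500 bases stand at 67.2% to 97.1% of the other libraries and Tyrobp at 3.57%, while Cd14 lies above the line at 191%.

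Markers of several other cell types also had lower levels in this comparison, with 0 called in each list. Of 15 Kupffer cell markers, 14 were lower in KO GFP livers and 0 were called (median −1.45), with a summed level of 6625 to 10878 normalized reads in KO GFP and 14722 to 18395 in WT GFP livers. Clec4f, a lectin found on mouse Kupffer cells, differed by −1.86 (SE 0.38, adjusted p = 0.162), with 355.3 to 1153 in KO GFP and 2177 to 3309 in WT GFP livers. T and NK cell markers (11 of 14 tested, all 11 lower, 0 called, median −1.24) summed to 57.0 to 146.1 in KO GFP and 171.1 to 297.1 in WT GFP livers. B cell markers (8 of 9 tested, all 8 lower, 0 called, median −0.64) summed to 118.4 to 319.2 in KO GFP and 301.4 to 464.3 in WT GFP livers. Markers of red cells and blood (7 of 7 tested, 6 lower, 0 called, median −1.10) summed to 5532 to 7503 in KO GFP and 9743 to 25882 in WT GFP livers. None of these lists had a marker without a read in a whole group, and their part in the result was not tested. Recruited monocyte markers (10 of 12 tested) had a median of −0.29, sinusoidal endothelial markers (12 of 12) −0.29 and hepatocyte markers (12 of 12) 0.09, with 0 called in each. Dendritic cell markers (8 of 11 tested, 7 lower) had a median of −0.99 and general leukocyte markers (11 of 12 tested, 9 lower) of −0.55. The medians of the remaining lists were −0.72 for neutrophils, −0.19 for lipid-associated macrophages, −0.18 for stellate cells and −0.26 for cholangiocytes, and 0 markers were called in any of them. Several of these medians rested on KO GFP replicate 3, without which they were −0.83 for Kupffer cells, −0.82 for T and NK cells, 0.21 for lipid-associated macrophages and 0.08 for cholangiocytes. With the length trend removed they were −0.19 for neutrophils, −0.57 for red cells and blood, 0.13 for recruited monocytes and 0.18 for lipid-associated macrophages. S100a4 was the only monocyte marker listed at 0 in every library, and the neutrophil markers Cxcr2 and Ly6g had no read in KO GFP livers.

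The wider myeloid pathways had smaller medians in KO GFP livers. Among 18 genes of the CSF1 receptor axis and myeloid transcription factors, 13 were lower and 0 called (median −0.39). Spi1, which encodes PU.1, differed by −1.37 (SE 0.48, adjusted p = 0.287). Of 25 tested adaptors, partner receptors and kinases of immunoreceptor signalling, 24 were lower and 0 called (median −0.51), or 21 of 22 without the 3 markers on that list (median −0.46). Fcgr3, a low-affinity IgG receptor that needs Fcer1g, differed by −1.19 (SE 0.36, adjusted p = 0.279). Of 23 phagolysosome genes, 19 were lower and 0 called (median −0.58), or 16 of 20 without the 3 markers on it (median −0.55). Among them was Cyba, a subunit of the phagocyte oxidase (−1.17, SE 0.34, adjusted p = 0.272). The Toll-like receptor 4 list, to which Cd14 belongs, had 6 of 14 lower, 0 called and a median of 0.09.

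**Figure D4:**
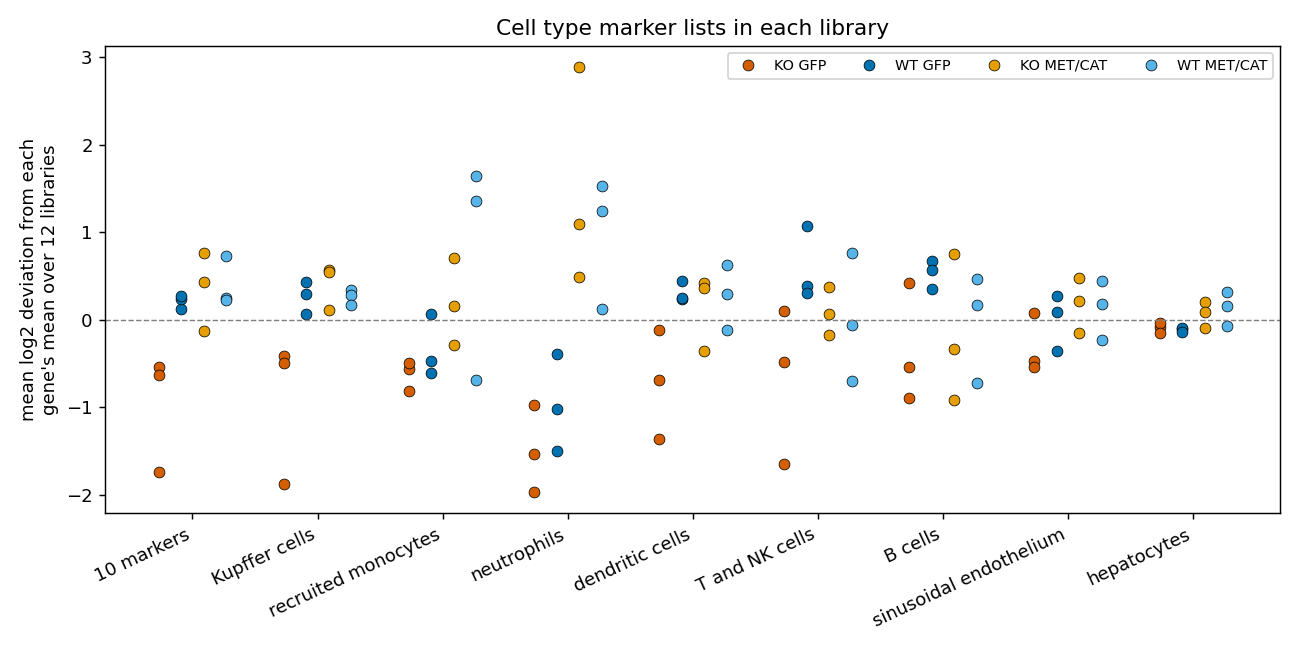
Mean log2 deviation of each cell type list from its genes' means over all 12 libraries (vertical axis), 1 point per library, by list and group. KO GFP replicate 3 is the lowest point for the 10 markers (−1.73) and for the Kupffer cell list (−1.88), and the MET/CAT libraries are high for neutrophil markers.

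In MET/CAT livers, the same genotype comparison gave no common direction. The median log2 difference between KO MET/CAT and WT MET/CAT livers was −0.05, with 4 markers higher and 6 lower, and −0.002 over all genes. With limma, 0 of 10 were called (0.00721% of all genes, again Sirt2 alone), 0 had an unadjusted p under 0.05, and edgeR and DESeq2 called 0 (DESeq2 0.272% of all genes). The libraries of KO and WT overlapped for every marker, while 7.01% of all genes were lower and 6.82% higher in every KO library. The intervals were wide, from −0.12 to 0.85 for Laptm5 (difference 0.37), −0.67 to 0.28 for Csf1r (−0.19) and −2.37 to 0.51 for Cd14 (−0.93), so differences of these sizes are not shown to be absent. The summed level was 2600 to 4805 normalized reads in KO MET/CAT livers, against 3175 to 6063 in WT MET/CAT livers.

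The difference between these genotype effects was tested as an interaction, which takes the KO minus WT difference in MET/CAT livers less that in GFP livers. It was above 0 for 9 of 10 markers, all but Cd14, and for 52.5% of all genes, with a median of 1.27 (0.04 over all genes). With limma 0 of 10 were called (0.0% of all genes), 4 of 10 and 2153 of 13871 genes had an unadjusted p under 0.05, edgeR called 0 and DESeq2 called 2, Laptm5 and Aif1 (1.27% of the genes it tested). Laptm5 had an interaction of 1.66 (SE 0.32, 95% interval 0.97 to 2.34, adjusted p = 0.190) and Aif1 of 1.80 (SE 0.49, adjusted p = 0.265). Without KO GFP replicate 3 the median was 0.67. Averaged over both plasmids, the level of all 10 markers, and of 56.5% of all genes, was lower in KO livers (median −0.53), with 0 called by limma, edgeR and DESeq2 (0.0144% of all genes by limma), and 4 of 10 and 1125 of 13871 genes had an unadjusted limma p under 0.05.

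Among KO livers, Laptm5 and Fcer1g rose with MET/CAT. All 10 markers were higher in KO MET/CAT than in KO GFP livers, as were 53.2% of all genes, with a median of 1.18 against 0.05 over all genes, and 2 of 10 were called higher by limma, beside 0.858% of all genes. Laptm5 had 756.2, 555.5 and 476.6 normalized reads in KO MET/CAT livers, against the 163.6 to 245.9 of KO GFP livers. The groups lay far apart, and Laptm5 rose by 1.49 (SE 0.22, 95% interval 1.005 to 1.97, adjusted p = 0.00764), a call that remained in all 12 fits that left out a library. Fcer1g had 385.3, 280.4 and 300.4 in KO MET/CAT livers, against 28.0 to 140.8 in KO GFP livers. It rose by 2.00 (SE 0.45, adjusted p = 0.0461), with no overlap. That call remained in 3 of the 12 fits without a library (KO GFP replicate 1, KO GFP replicate 3 or WT MET/CAT replicate 1), with adjusted p between 0.0273 and 0.129, and the difference without KO GFP replicate 3 was 1.27 (adjusted p = 0.0273). KO GFP livers enter both this comparison and that with WT GFP livers, which therefore share libraries.

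The remaining markers did not pass the test among KO livers. Lyz2 had 1081, 751.2 and 1219 normalized reads in KO MET/CAT livers, against 141.0 to 576.7 in KO GFP livers (1.49, SE 0.45, adjusted p = 0.113). Csf1r had 603.3, 390.2 and 587.0 in KO MET/CAT livers, against 324.5 to 355.4 in KO GFP livers (0.62, SE 0.22, adjusted p = 0.154). With Laptm5, Fcer1g and Cd14, these made 5 markers whose KO MET/CAT libraries all lay above the KO GFP libraries, which held for 14.4% of all genes, and the same 5 remained apart without KO GFP replicate 3 (18.59%). Tyrobp had 356.4, 130.8 and 273.9 in KO MET/CAT livers and overlapped the KO GFP livers (2.14, SE 0.89, adjusted p = 0.200). Fcgr1 had 74.7, 43.9 and 62.6, and Aif1 198.7, 87.9 and 182.6, in KO MET/CAT livers, with an overlap in both. Cd68 had 149.3, 99.4 and 89.2, and Adgre1 106.0, 85.8 and 174.1, and these overlapped as well. The log2 differences were 0.78 for Fcgr1, 0.88 for Aif1, 0.73 for Cd68 and 0.48 for Adgre1, with adjusted p of 0.184 to 0.459. KO MET/CAT replicate 2 was the lowest library of its group for 8 of the 10 markers, all but Cd68 and Laptm5. Without KO GFP replicate 3, all 10 markers were still higher and the median was 0.61.

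Among WT livers, the MET/CAT and GFP groups differed in both directions, and no marker passed the limma test. The median was −0.06 (−0.01 over all genes), with 4 higher and 6 lower, and limma called 0 of 10 (0.339% of all genes). An unadjusted limma p under 0.05 was found for 3 of 10, against 2059 of 13871 genes, and edgeR and DESeq2 each called 1, Cd14, beside 0.526% and 4.09% of all genes. Aif1 had 132.6, 116.0 and 91.2 normalized reads in WT MET/CAT livers, against 182.8 to 270.8 in WT GFP livers. Fcgr1 had 60.8, 48.5 and 26.7 in WT MET/CAT livers, against 74.8 to 88.8 in WT GFP livers. Both lay wholly below the WT GFP libraries, as 10.3% of all genes did, each with a log2 difference of −0.92 (adjusted p = 0.243 for Aif1 and 0.269 for Fcgr1). Fcer1g had 308.0, 277.3 and 383.6 in WT MET/CAT livers, against 234.7 to 261.3 in WT GFP livers, and lay wholly above them with Cd14, as 10.5% of all genes did (0.37, SE 0.45, adjusted p = 0.741).

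The markers left overlapped between WT MET/CAT and WT GFP livers. Laptm5 had 475.5, 510.4 and 384.7 normalized reads and Csf1r 640.9, 694.9 and 464.7 in WT MET/CAT livers, with differences of −0.17 (95% interval −0.65 to 0.31) and −0.01 (−0.48 to 0.47). Lyz2 had 838.3, 1985 and 1380 in WT MET/CAT livers, 2 of them above every WT GFP library (0.63, 95% interval −0.33 to 1.59). Tyrobp had 220.3, 229.9 and 181.2, Cd68 105.7, 164.5 and 93.4, and Adgre1 132.6, 187.7 and 112.3 in WT MET/CAT livers. Their differences from WT GFP livers were −0.11, −0.18 and 0.01. Among the alternative settings, the sign turned in 8 for Adgre1, 6 for Csf1r, 3 for Tyrobp and 1 for Cd68. These included equal library totals (−0.10) and quantile normalization (−0.05) for Adgre1, and quality weights per library (0.16) for Csf1r.

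Cd14 was the marker that differed most with the oncogenes in both genotypes. It had 1093, 174.7 and 348.2 normalized reads in KO MET/CAT livers and 260.2, 1850 and 959.5 in WT MET/CAT livers, against 46.1 to 102.2 in KO GFP and 65.8 to 105.4 in WT GFP livers. Every MET/CAT library lay above every GFP library, with a wide spread within each MET/CAT group. The difference was 2.60 in KO (SE 0.67, 95% interval 1.16 to 4.04, adjusted p = 0.0758) and 3.26 in WT livers (SE 0.67, 95% interval 1.81 to 4.70, adjusted p = 0.0523), and neither passed the test on its own. Averaged over genotypes, Cd14 rose by 2.93 (SE 0.47, adjusted p = 0.00481), and this call remained in all 12 fits without a library. Laptm5 was the other marker called in that averaged comparison, at 0.66 (SE 0.16, adjusted p = 0.0343). Among WT livers Laptm5 averaged 456.8 normalized reads with MET/CAT and 510.5 with GFP, so its averaged rise came from the KO livers. Its call remained in 5 of the 12 fits (without KO GFP replicate 2 or 3, KO MET/CAT replicate 3, or WT MET/CAT replicate 1 or 3) and was lost with equal library totals (0.49, adjusted p = 0.0887). Called markers were thus 2 of 10, beside 2.4% of all genes called higher, with a median of 0.48 against 0.02 over all genes.

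Cd14 held a varying share of the marker reads. It made up 6.72% to 22.8% of the summed marker level in KO MET/CAT livers and 8.19% to 30.5% in WT MET/CAT livers, against 2.58% to 10.7% in KO GFP and 2.04% to 3.28% in WT GFP livers. Across the 12 libraries its Pearson correlation with each of the other 9 markers ran from −0.07 to 0.62 (median 0.32). With the group means removed it ran from −0.14 to 0.35 (median 0.13). The 36 pairs among the other 9 ran from 0.41 to 0.92 (median 0.71), and from −0.07 to 0.93 (median 0.56) with the group means removed. Without KO GFP replicate 3, the pairs with Cd14 ran from −0.18 to 0.88 (median 0.42) and the other 36 from −0.01 to 0.86 (median 0.58), so the contrast between them was smaller. All share libraries and depth, and they are given as a description. The MET/CAT library lowest in Cd14 in each genotype was also lowest in Lbp, the lipopolysaccharide-binding protein secreted by hepatocytes, and in Lcn2, a lipocalin of neutrophils and acute-phase hepatocytes. Lbp had 4730, 1707 and 2971 normalized reads in KO MET/CAT livers and 2122, 5242 and 8059 in WT MET/CAT livers. Lcn2 had 7783, 1856 and 4490 in KO MET/CAT livers and 706.7, 6054 and 11643 in WT MET/CAT livers. The highest Cd14 library was highest in both genes among KO MET/CAT livers but not among WT MET/CAT livers, where replicate 3 was highest in both. S100a8, a neutrophil gene, had 714.1, 73.2 and 167.7 in KO MET/CAT livers and 104.7, 213.0 and 173.4 in WT MET/CAT livers. Its libraries stood in the same order as those of Cd14 in both groups. The marker Lyz2 was also lowest in the libraries lowest in Cd14, at 751.2 in KO MET/CAT replicate 2 and 838.3 in WT MET/CAT replicate 1. These orders over 3 libraries per group were not tested.

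**Figure D5:**
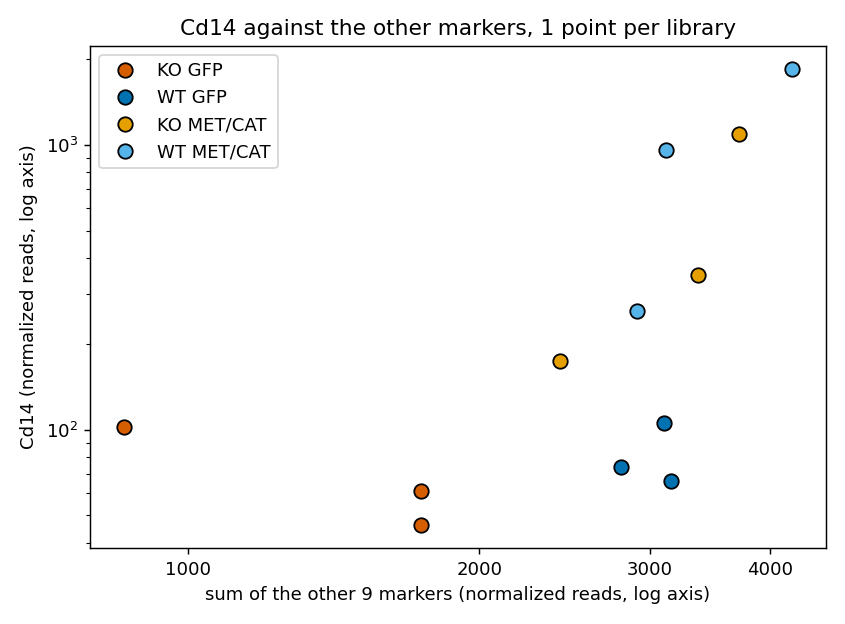
Normalized reads of Cd14 (vertical, log axis) against the sum of the other 9 markers (horizontal, log axis), 1 point per library, coloured by group. KO GFP libraries lie to the left at 857.0 to 1741, the WT GFP libraries to the right at overlapping Cd14 levels, and the MET/CAT libraries above them.

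Some genes of the companion lists rose with MET/CAT. Among KO livers, where limma called 0.858% of all genes higher, 3 of 15 Kupffer cell markers were called higher and 0 lower (median 1.19). These were Spic, a transcription factor of iron-recycling macrophages (3.34, SE 0.48, adjusted p = 0.00728), Id3, a transcription regulator that Kupffer cells need (3.16, adjusted p = 0.0122), and Marco, a scavenger receptor (3.51, adjusted p = 0.0263). Of 23 phagolysosome genes, 2 were called higher (median 0.71), Laptm5 itself and Ncf1, a subunit of the phagocyte oxidase (2.01, SE 0.32, adjusted p = 0.00953). Of 25 adaptors, receptors and kinases, 2 were called higher (median 0.99), Fcer1g itself and Clec4d, a lectin that signals through it (4.36, SE 0.79, adjusted p = 0.0211). Of the 18 genes of the CSF1 receptor axis, 0 were called in the limma fit (median 0.67), and Spi1 differed by 1.91 (SE 0.48, adjusted p = 0.0701). Of the 14 genes of the Toll-like receptor 4 list, 0 were called (median 0.19), and Tlr2 differed by 3.58 (SE 1.07, adjusted p = 0.1097). Without KO GFP replicate 3 the medians were 0.64 for the Kupffer cell list, 0.38 for the phagolysosome genes, 0.62 for the adaptors, receptors and kinases and 0.34 for the Toll-like receptor 4 list. Over the 12 fits without a library, Spic and Ncf1 were called in 12, Id3 in 11, Clec4d in 9 and Marco in 8. Among WT livers the Kupffer cell list had 10 of 15 markers lower and a median of −0.26, and the medians of the other lists were 0.10 for the phagolysosome genes, 0.28 for the adaptors, receptors and kinases, 0.28 for the CSF1 receptor axis and 0.70 for the Toll-like receptor 4 list.

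Neutrophil markers had higher levels in MET/CAT livers of both genotypes, and neutrophils also express Tyrobp, Fcer1g, Laptm5, Lyz2 and Cd14. Among KO livers 5 of 13 tested were called higher, beside 0.858% of all genes, and 0 lower (median 3.40). The 5 were S100a8, S100a9, Lcn2, Mmp9 and Cxcr2. S100a8, a subunit of calprotectin, had 73.2 to 714.1 normalized reads in KO MET/CAT livers, against 12.7 to 18.8 in KO GFP livers (3.63, SE 0.62, adjusted p = 0.0140). The list of 15 summed to 2325 to 11184 in KO MET/CAT and 1084 to 12405 in WT MET/CAT livers, against 170.2 to 378.5 in KO GFP and 254.7 to 887.3 in WT GFP livers. Much of this sum was Lcn2, which hepatocytes also make, and the other 14 summed to 468.7 to 3402 in KO MET/CAT and 377.8 to 1138 in WT MET/CAT livers, against 78.3 to 125.8 in KO GFP and 109.1 to 264.0 in WT GFP livers, a sum added after the data were seen. Over the 12 fits without a library, S100a8 was called among KO livers in 11 and Cxcr2 in 1. The part of neutrophils in the differences of the myeloid markers was not tested. Among WT livers, 1 neutrophil marker was called, Mmp8, which had no read in WT GFP livers and 11.0 to 36.9 normalized reads in WT MET/CAT livers (adjusted p = 0.0450). Also called among WT livers were Spic of the Kupffer cell list (2.99, SE 0.48, adjusted p = 0.0188) and Lpl, lipoprotein lipase, of the list of lipid-associated macrophages (2.29, SE 0.43, adjusted p = 0.0445). Over the 12 fits without a library these WT calls remained in 5 for Mmp8, 8 for Spic and 6 for Lpl. Of all genes, limma called 0.209% higher in WT MET/CAT than in WT GFP livers. Recruited monocyte markers had 0 of 10 called in both genotypes, with a median of 0.79 among KO and 0.87 among WT livers.

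The genes whose pattern was most like the mean of the 10 markers were found among 8408 other genes with a mean of at least 100. Over the 12 libraries the highest Pearson correlations were with Rac2, a GTPase of blood cells (0.975), and Cd74, the invariant chain of MHC class II (0.972). Spi1 (0.949), H2-Ab1 (0.946), Fxyd5 (0.944), H2-Aa (0.940), H2-Eb1 (0.935) and Cxcl16 (0.934) followed, of which 3 encode MHC class II chains. Rac2 averaged 74.9 ± 38.5 normalized reads in KO GFP and 147.9 ± 24.7 in WT GFP livers, and 191.5 ± 64.3 in KO MET/CAT and 214.6 ± 50.1 in livers of WT mice given MET/CAT (SD, n = 3). Cd74 averaged 654.5 ± 276 in KO GFP and 1459 ± 134 in WT GFP livers, and 1703 ± 355 in KO MET/CAT and 1447 ± 36.7 in WT MET/CAT livers. With group means removed, Auh (0.970), Rac2 (0.956), Cd74 (0.936) and Daxx (0.934) were highest. These are descriptions, picked for their likeness over the same libraries. KO GFP replicate 3 lay furthest from its group in the marker mean (−0.77, against −0.49 to 0.43 in the others). The ranking was not repeated without it.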

How the data were processed

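Per the submitters' processing notes, reads were handled with HISAT2 2.0.4 and HTSeq 0.11.2 on GRCm38. The sources used here do not give the strand setting or the tool of normalization. The deposited signal of each gene is its count after division, by the authors, by a factor for each library. Whole reads were recovered from their steps for 100% of values, within a tolerance of 0.1 reads, although the step of WT GFP replicate 1 and of WT MET/CAT replicate 1 lay too near 1 to tell. Reads counted in genes numbered 18208879 to 24352961 per library, of which the 10 markers received 1061 to 5750.

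The unit is not raw counts, so limma 3.58.1 (R 4.3.3) was run with its trend option on log2(value + 1), which understates the change of low genes. A gene was tested if 3 or more libraries had a value of 10 or higher (13871 of 47263). All 12 libraries entered a model of 4 group means with no block, and Benjamini-Hochberg adjustment ran over all genes, with calls under 0.05. Intervals are at 95%. The method was tested on simulated data, which held no outlying library and no trend with transcript length. Alternatives were edgeR 4.0.16 and DESeq2 1.42.0 on recovered reads, other pseudocounts, other filters, equal library totals, quantile normalization, quality weights per library, removal of the trend with transcript length, a block by replicate number, fits of only the 6 libraries compared, and omission of each library in turn. Positions, overlaps and median transcript lengths came from GENCODE M21. Levels per length used recovered reads. Python 3.11.15 with matplotlib 3.10.9 made the figures.

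The markers, companion lists and tests were chosen with earlier results of these data known. The markers were described in every library. From each companion list up to 4 members with the smallest p, and every called member where 5 or fewer were called, could be named, and not all are printed. The genes most like the markers were ranked by Pearson correlation with their mean centred log2 level, leaving out predicted genes and date-like or repeated names.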

Additional observations from a re-analysis of the deposited data

How the results depend on the processing

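For KO GFP against WT GFP, the number of markers called was 0 except with library quality weights (6, beside 33.0% of all genes, with a median of −0.63) and DESeq2 (2). Leaving out 1 library kept it at 0, with medians from −1.39 to −0.75, the latter without KO GFP replicate 3. Without that library 9 markers did not overlap, against 8 with it. The quality weights were 7.25 for WT GFP replicate 1 and 6.06 for KO GFP replicate 1, against 0.24 to 1.31 for the other libraries. Fits with these weights thus leaned on 1 library in each GFP group. For WT MET/CAT against WT GFP, 1 marker was called with quantile normalization, edgeR, DESeq2 or the length trend removed, in each Cd14, and 4 with quality weights (Cd14 and Lyz2 higher, Aif1 and Fcgr1 lower), beside 18.9% of all genes. Of all genes, quantile normalization called 49 of 13871 higher, the length trend removed 77 of 13811, and the fits without a library 2 to 225. The range without a library was 0 to 1, with Cd14 called without KO GFP replicate 3, WT MET/CAT replicate 1 or KO MET/CAT replicate 1. For KO MET/CAT against KO GFP, 1 was called with no filter, equal library totals, edgeR or only the 6 libraries, in each Laptm5, 4 with DESeq2 (7.11% of all genes) and 5 with quality weights (11.8%). Of all genes, no filter called 96 of 24243 higher. Of 13871, equal library totals called 83 higher, edgeR 122, only the 6 libraries 62, and the fits without a library 38 to 179. Leaving out a library gave 1 to 3 calls and medians of 0.61 to 1.39, the lowest without KO GFP replicate 3. For the interaction, quality weights gave 3 calls (9.91% of all genes) and a median of 0.59, DESeq2 gave 2 calls, the length trend removed gave a median of 0.84, and leaving out a library gave 0.67 to 1.46. For MET/CAT against GFP averaged over genotypes, 1 was called with equal library totals, 3 with a pseudocount of 5 or the length trend removed, 4 with DESeq2 (8.22% of all genes), 5 with quality weights (17.1%), and 1 to 3 without a library. Of all genes, equal library totals called 224 of 13871 higher, that pseudocount 349, the fits without a library 192 to 448, and the length trend removed 397 of 13811. The cause of these changes was not tested. Equal library totals set the median of all genes at 0.11 for KO GFP against WT GFP and −0.17 for KO MET/CAT against KO GFP, and the 10 markers kept their directions in both. Between groups, the deviations of same-numbered libraries had Pearson correlations from −0.195 to 0.28. Differently numbered libraries were not compared, and the labels do not say what a replicate number means, so whether the numbers pair libraries was not settled. With the replicate block, 0 markers were called for KO GFP against WT GFP and 2 for KO MET/CAT against KO GFP, as without it. Of 1650 values of single markers under the alternatives, 37 uncalled ones changed sign, and no called value did. Among the markers, Fcgr1 (26.2 normalized reads at its lowest) and Tyrobp in KO GFP replicate 3 (5.42) rest on the fewest reads.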
